A study of Mus musculus with 4 samples.

Results

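Early stem and multipotent progenitors were picked from single-cell RNA sequencing of mouse bone marrow by the transcripts of each cell. A cell was taken if it had at least 1 UMI (unique molecular identifier, a counted transcript molecule) of Kit, at least 1 of Cd34 and at least 1 of Meis1, Hlf or Mecom, at most 5 of Elane and at most 1 of Klf1, and none of Mcpt8, Prss34 or C1qa. This gate held 276 of the 39743 cells that passed quality limits (300 genes or more, no more than 20% mitochondrial UMIs), which was 0.694%. In the 4 libraries, each from 1 mouse, it held 71 of 9261 cells (vehicle mouse 1), 48 of 7826 (vehicle mouse 2), 94 of 13387 (PM mouse 1) and 63 of 9269 (PM mouse 2). All mice were 5TMM mice, that is C57BL/KawRij mice injected intravenously at 6 weeks of age with 5TGM1-luc myeloma cells, a transplantable mouse plasma cell tumor line that carries luciferase. At 3 weeks after the injection, 2 mice received vehicle and 2 received 10 mg/kg PM (purinostat mesylate), an inhibitor of class I and IIb histone deacetylases (HDACs), and the marrow was taken at 24 h. The comparison asked what the drug did to the transcripts of these cells. All values are from tumor-bearing mice, mice without tumor were not analysed here, and red cells were lysed before the droplets were made.

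Hematopoietic stem cells and multipotent progenitors sit at the top of blood formation, keep themselves in the marrow niche, and give rise to myeloid, lymphoid, megakaryocytic and erythroid cells. KIT is the receptor for stem cell factor, CD34 is a surface sialomucin of progenitors, and MEIS1, HLF and MECOM are transcription factors that hold the stem cell program. HDACs remove acetyl groups from histones and other proteins, and their class I members are the catalytic subunits of corepressor complexes.

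Of the genes in the gate, raw CPM (the UMIs of a gene scaled to the UMI total of the summed gated cells) are given in the order vehicle 1, vehicle 2, PM 1 and PM 2. Kit had 230, 233, 242 and 244 CPM, Meis1 234, 242, 267 and 232, and Hlf 219, 296, 199 and 195. Their levels chose the cells and are given with no test. Against granulocyte-monocyte progenitors (978 cells with Kit, more than 5 Elane UMIs and at least 10 Mpo UMIs) and early erythroid progenitors (312 cells with Kit and at least 2 Klf1 UMIs, other gates alike), the mean raw level of Hlf was 227 CPM compared with 14.1 and 3.02. Mecom was at 47.3 CPM compared with 0.480 and 0.638. Cdk6, a kinase of the cell cycle that took no part in the gate, was at 1339, 920, 1055 and 1067 CPM in the gated cells. Flt3, a receptor of multipotent and lymphoid-primed progenitors that was not in the gate either, had 233, 267, 185 and 276 raw CPM.

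The edges of the gate were populated. Among cells that met all other criteria, 59 had no UMI of the 3 factors and stayed outside, 32 had 1, 36 had 2 and 182 had more than 3. On the Elane side, 217 gated cells had no Elane UMI, 3 had 4 or 5, 6 cells just outside had 6 to 8, and 144 had more. A further 312 cells lacked only Cd34 and 83 only Kit. The gated cells were deeper than the marrow at large, with a median of 12197, 15893.5, 12448 and 14794 UMIs per cell compared with 6067, 5330.5, 4717 and 4805 in all cells. Their median share of mitochondrial UMIs was 4.63% and 4.47% after vehicle and 5.15% and 5.10% after PM. The groups did not overlap in it, and its part in the calls below was not tested. In sum 4337876 UMIs stood behind the gated cells, and 30 of the 276 (10.9%) were marked as doublets by their score.

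Markers of other cell types were measured in the same sums. The summed raw level of 10 neutrophil markers, led by S100a9, was 22479, 22416, 23768 and 6218 CPM, so PM mouse 2 stood apart from the other 3 mice. A single cell held 2373 of 8087, 4926 of 6765, 2490 of 13998 and 1215 of 2258 S100a9 UMIs, which was most of them in vehicle mouse 2 and PM mouse 2. Without that cell 5714, 1839, 11508 and 1043 S100a9 UMIs were left, so vehicle mouse 2 then lay near PM mouse 2. Of these markers S100a8 is present in most droplets of such marrow, and it was found in 100% of the gated cells, and in 83.6%, 70.8%, 91.4% and 77.8% of them once each cell was thinned to 5000 UMIs. Plasma cell markers summed to 65.6, 57.4, 417 and 81.2 CPM, led by Igha with Prdm1 at 0, and here PM mouse 1 stood apart, where 1 cell held 353 of 417 Igha UMIs. B cell markers, led by Cd79b, came to 55.3, 39.4, 215 and 52.2 CPM, again with PM mouse 1 apart. Megakaryocyte markers (7 genes, led by Pf4, Tubb1 at 0) gave 532, 224, 1277 and 1326 CPM, and erythroid markers (9 genes, led by Hbb-bt) gave 69.4, 51.8, 260 and 205 CPM, both higher in each PM mouse than in each vehicle mouse. Low sums were found for macrophage markers (7 genes, 10.3, 14.6, 22.4 and 11 CPM, Mertk at 0), T and NK cell markers (9 genes, 1.87, 0, 23.1 and 7.02, Gzma and Ncr1 at 0), eosinophil markers (5 genes, 8.44, 6.76, 17.3 and 15.0, Il5ra at 0) and stromal markers (7 genes, 3.75, 2.25, 2.89 and 4.01, Col1a1, Adipoq and Pdgfra at 0). Monocyte markers (8 genes, led by Ly6c2) gave 553, 843, 634 and 552 CPM, dendritic cell markers (8 genes, led by Flt3, Xcr1 at 0) 307, 332, 325 and 393, basophil and mast cell markers (8 genes, led by Ms4a2, Cma1 and Tpsb2 at 0) 206, 80.0, 139 and 173, and endothelial markers (8 genes, led by Pecam1, Flt4 and Stab2 at 0) 133, 110, 123 and 148. The libraries shared between 18 and 39 cell barcodes in pairs, at most 0.421% of the smaller library.

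The share of gated cells differed between the groups by less than the spread between mice. Their share was 0.767% (95% exact Clopper-Pearson interval 0.599 to 0.966) and 0.613% (0.453 to 0.812) after vehicle, and after PM it was 0.702% (0.568 to 0.859) and 0.680% (0.523 to 0.869). The means were 0.690% ± 0.108 and 0.691% ± 0.0159 (SD, n = 2 mice), and the exact two-sided permutation test gave p = 1, where 2 against 2 mice cannot go below 0.33. When cells were first thinned to 5000 UMIs and then gated, cells under 5000 UMIs left the total, which kept 58.9%, 52.4%, 47.3% and 48.1% of the cells. The share was then 42 of 5451 cells (0.771%) and 31 of 4103 (0.756%) after vehicle and 62 of 6334 (0.979%) and 43 of 4457 (0.965%) after PM, higher in 4 of 4 pairs of mice (exact permutation p = 0.333). Over the same deep cells without thinning it was 1.23% and 1.17% after vehicle and 1.47% and 1.41% after PM, likewise higher in 4 of 4 pairs, so the groups already did not overlap once the cells under 5000 UMIs were left out. Per granulocyte-monocyte progenitor there were 0.346 and 0.312 gated cells after vehicle and 0.251 and 0.257 after PM, lower in 4 of 4 pairs (exact permutation p = 0.333). These progenitors themselves made 2.21% and 1.97% of cells after vehicle and 2.79% and 2.64% after PM, higher in 4 of 4 pairs (exact permutation p = 0.333). Intervals cover counting error only.

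Within the gate, cells varied in the programs they had begun, and the share of cells with a transcript was compared after thinning each cell to 5000 UMIs (271 cells, 5 were shallower and left out). Flt3 was found in 41.8% and 56.3% of the cells after vehicle, compared with 44.1% and 58.7% after PM. Dntt, the terminal transferase of lymphoid-primed progenitors, was found in 17.9% and 25.0% compared with 28% and 28.6%. Procr, the surface receptor EPCR of the most primitive stem cells, was found in 2.99% and 6.25% compared with 8.60% and 15.9%. Both were higher in each PM mouse than in each vehicle mouse, with an exact permutation p of 0.333, the smallest this design can give. In thinned neutrophil-like cells (no Kit UMI, at least 50 S100a8 UMIs), which should lack these genes, Procr reached at most 0.0575%, Flt3 at most 1.19%, and Dntt 0.144%, 0.0940%, 0.826% and 0.437%, likewise higher in both PM mice, and the median depth of those cells before thinning was 5639, 5404, 4461.5 and 4605 UMIs. Before thinning, Procr was in 8.45%, 10.4%, 12.8% and 23.8% of the gated cells, Dntt in 26.8%, 41.7%, 34.0% and 30.2%, and Flt3 in 63.4%, 75.0%, 60.6% and 69.8%, so the groups then overlapped for Dntt and not for Procr.

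Hlf went the other way, at 52.2% and 52.1% of the cells in vehicle and 38.7% and 47.6% in PM, and so did Mki67 or Top2a, genes of dividing cells, at 59.7% and 60.4% compared with 55.9% and 54.0%. Both were lower in 4 of 4 pairs, and for Mki67 or Top2a the exact permutation p was 0.333. Before thinning Mki67 or Top2a was found in 64.8%, 75.0%, 66.0% and 68.3% of the cells, where the groups overlapped. Hlf was part of the gate and is given as a description, also at 74.6%, 79.2%, 69.1% and 66.7% before thinning. Gata1, Itga2b or Pf4, genes of the megakaryocytic and erythroid lineages, were found in 40.3% and 12.5% of the cells compared with 35.5% and 33.3%, where the groups overlapped. Cells with at least 5 Mpo UMIs made 17.9% and 16.7% compared with 16.1% and 15.9%.

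**Figure D1:**
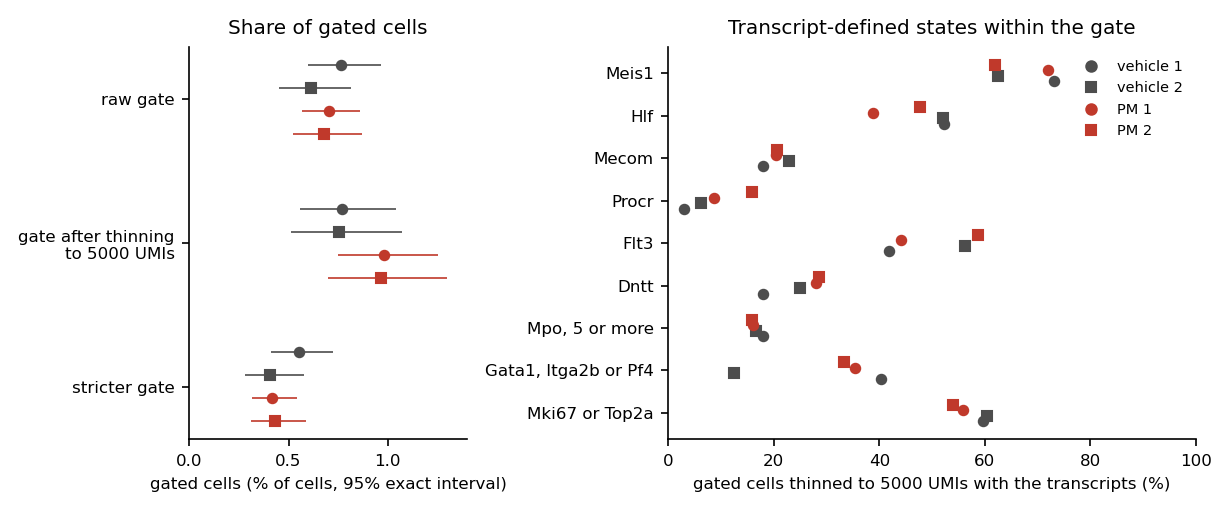
Left, the share of gated cells among all cells of each mouse in percent, as gated, after thinning to 5000 UMIs and with a stricter gate, with 95% exact intervals as bars. Right, the percentage of gated cells, thinned to 5000 UMIs, with the named transcripts, 1 point per mouse. The share overlaps between groups as gated, while the Procr and Dntt points of both PM mice lie to the right of both vehicle mice.

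In the cells of the gate, Vwf, Slc14a1, F2r, Nkg7, Rnase6 and 4 MHC class II genes were among those called higher with PM, and 4 histone genes, Ube2c, Mki67, Syne2, Erg and Prtn3 among those called lower. The sums of each mouse were compared with edgeR's quasi-likelihood test over 9291 genes, and the calls needed both a p under 0.05 after Benjamini-Hochberg adjustment and a log2 fold change beyond 0.5 in size. With PM 26 genes were called higher (0.280% of those tested) and 13 lower (0.140%), 0.420% together, and the median log2 fold change of all tested genes was 0.000477. Higher in all 4 pairs of mice were 1604 genes (17.3%) and lower in all 4 were 1534 (16.5%). With at least 2 UMIs of Kit, of Cd34 and of the 3 factors required, no gene was called by edgeR (195 higher and 177 lower at an unadjusted p under 0.05). That gate left 51, 32, 56 and 40 cells, and log2 fold changes in it were 1.47 for Slc14a1, 1.14 for F2r, -1.24 for Hist1h1c and -1.72 for Syne2. Others shrank, among them Cd74 from 2.55 to 1.69, H2-Aa from 2.04 to 1.07, H2-Ab1 from 1.10 to 0.49 and Gnb4 from 1.13 to 0.61. With the gate as described, DESeq2 called 1 gene, Cd74. In 7 of the 39 genes the call held with each of the 4 mice left out in turn, namely Slc14a1, F2r, Vwf, Cd74, Nkg7, Hist1h1c and Hba-a2. Values per mouse below are CPM scaled with TMM factors (trimmed mean of M-values), in the order vehicle 1, vehicle 2, PM 1 and PM 2. The study's methods count each library as 1 mouse, and p-values measure the spread between these 4 mice.

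**Figure D2:**
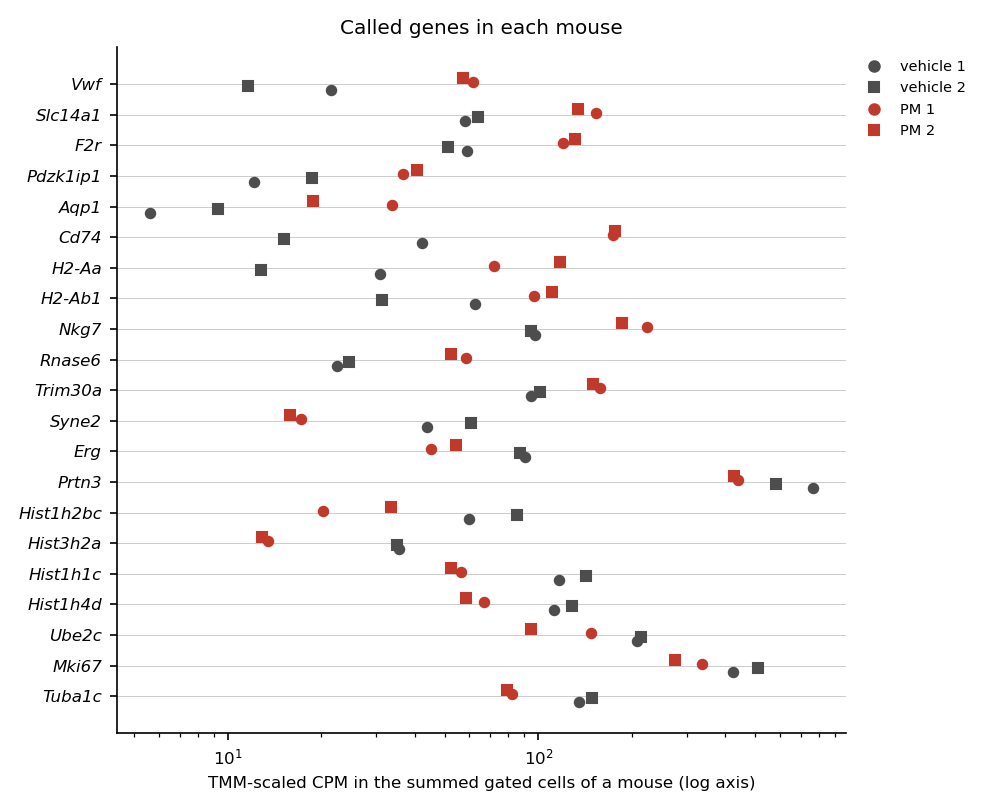
TMM-scaled CPM of 21 called genes in the summed gated cells of each mouse, on a log axis, 1 point per mouse. For each of these genes both PM mice lie on the same side of both vehicle mice, to the right from Vwf to Trim30a and to the left from Syne2 to Tuba1c.

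Among genes of the megakaryocytic and erythroid lineages and of the stem cell surface, Vwf (von Willebrand factor, chr6:125546774-125686679 in GRCm38), which marks platelet-biased stem cells, had 21.5, 11.7, 61.5 and 57.3 CPM and rose by 1.80 ± 0.30 on the log2 scale (SE, adjusted p = 0.000308). Both PM mice exceeded both vehicle mice in level, but not in the percentage of gated cells with Vwf, which was 9.86%, 6.25%, 14.9% and 6.35% (5.97%, 4.17%, 10.8% and 3.17% after thinning). In PM mouse 2 a single cell held 46 of its 58 UMIs, and once each gene was counted without its richest cell of each mouse the log2 fold change was 1.65 with an adjusted p of 0.982. F2r (the thrombin receptor PAR1, chr13:95601803-95618487), had 58.9, 51.3, 120 and 132 CPM, a log2 fold change of 1.18 ± 0.19 (adjusted p = 0.000227), and stood at 1.16 (adjusted p = 0.00201) without the richest cells. Slc14a1, a urea transporter of the erythroid and stem cell surface, had 58.0, 64.1, 153 and 134 CPM, a log2 fold change of 1.24 ± 0.18 (adjusted p = 7.47e-05), and 1.18 (adjusted p = 0.00171) without the richest cells. Slc14a1 was found in 31.0% and 39.6% of gated cells in vehicle and in 47.9% and 47.6% in PM, and after thinning in 14.9% and 18.8% compared with 26.9% and 23.8%. F2r was found in 32.4% and 25.0% compared with 40.4% and 39.7%, but after thinning its groups overlapped at 25.4%, 12.5%, 26.9% and 23.8%. In the fit of thinned cells both calls were lost, with log2 fold changes of 0.59 for Slc14a1 (adjusted p = 0.998) and 0.63 for F2r (adjusted p = 0.938). Neutrophil-like cells had 0.605, 1.35, 2.18 and 1.89 raw CPM of Slc14a1 and 0.497, 0.402, 1.19 and 0.861 of F2r, both higher in each PM mouse.

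Of 21 tested genes on a list of megakaryocyte and erythroid priming, 3 were called higher (Vwf, Aqp1 and Car1) and none lower. Of the 21, 15 were higher in all 4 pairs, compared with 17.3% of all tested genes, and the median log2 fold change was 0.67. The filter on low counts let Aqp1 and Car1 in through the PM mice alone, so their calls are no support for a rise of the list. Aqp1, a water channel of red cells, had 5.61, 9.33, 33.8 and 18.8 CPM (log2 fold change 1.87 ± 0.44, adjusted p = 0.0341), and lost its call without vehicle mouse 1 (adjusted p = 0.242) or PM mouse 1 (0.871). Car1, an erythroid carbonic anhydrase, had 0, 4.66, 24.0 and 23.7 CPM (log2 fold change 3.44 ± 0.62, adjusted p = 0.00173), with 20 of its 32 UMIs in PM mouse 1 and 20 of 24 in PM mouse 2 in 1 cell each, and lost its call without vehicle mouse 1 (0.0536), PM mouse 1 (0.0765) or PM mouse 2 (0.138). Pf4, platelet factor 4 and the most abundant member, had 337, 134, 1077 and 1023 CPM with an adjusted p of 0.822, and 1 cell held 157 of its 360, 104 of 115, 505 of 1435 and 610 of 1035 UMIs in the 4 mice. The uncalled members Car2 (log2 fold change 0.55, adjusted p = 0.0892) and Cd9 (0.63, adjusted p = 0.0744), a tetraspanin, were higher in 4 of 4 pairs. The list median was 0.46 when cells with at least 10 Pf4 UMIs were left out and 0.25 in cells thinned to 5000 UMIs. Without the Pf4-rich cells Slc14a1 gave 0.75 with an adjusted p of 0.236, and Vwf was too low to be tested. The megakaryocyte and erythroid marker sums given above moved with this list, and their part in it was not tested. The list shares Pf4, Ppbp, Gp9, Itga2b and Gp1bb with the megakaryocyte markers and Car1, Hbb-bs, Hba-a1 and Ermap with the erythroid markers. Of the hemoglobin genes, Hbb-bt rose by 2.08 ± 0.29 (adjusted p = 0.000663) and Hba-a2 was called higher with an adjusted p of 8.76e-05, of which Hbb-bt passed without the richest cells (adjusted p = 1.93e-08), though not without PM mouse 2 (0.0661), and Hba-a2 failed without the richest cells (0.915). Hbb-bs, at 11.2, 5.83, 51.0 and 13.8 CPM (adjusted p = 0.844), and Hba-a1, at 13.1, 14.0, 42.0 and 6.92 CPM (adjusted p = 0.995), were not called. Near-identical hemoglobin copies share reads, so the split between them is uncertain.

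MHC class II genes, which present peptides to helper T cells and are held low in most myeloid cells, were called higher in 4 of 8 tested members, with a list median of 0.93. Cd74, the invariant chain, had 42.1, 15.2, 173 and 177 CPM and rose by 2.55 ± 0.28 on the log2 scale (adjusted p = 0.00154). H2-Aa had 30.9, 12.8, 72.0 and 118 CPM (2.04 ± 0.36, adjusted p = 0.0427), H2-Ab1 62.6, 31.5, 96.8 and 111 (1.10 ± 0.23, adjusted p = 0.0241), and H2-Eb1 5.61, 2.33, 29.3 and 21.8 (2.61 ± 0.50, adjusted p = 0.00221). In each of the 4 genes the PM mice were above the vehicle mice, and vehicle mouse 2 was the lowest. The filter on low counts let H2-Eb1 in through the PM mice alone, so its call is no support for a rise of the list. In PM mouse 2 the cell richest in each gene held 121 of 179 Cd74 UMIs, 95 of 119 H2-Aa UMIs, 64 of 112 H2-Ab1 UMIs and 14 of 22 H2-Eb1 UMIs. The richest cell was found for each gene by itself, and whether it was the same cell was not tested. Without the richest cells the adjusted p was 0.992 for Cd74, 0.939 for H2-Aa and 0.932 for H2-Ab1, with log2 fold changes of 1.93, 1.18 and 0.60. H2-Eb1 had no value in that fit. Cd74 was found in 36.6% and 20.8% of gated cells in vehicle and in 46.8% and 39.7% in PM, and after thinning in 23.9% and 8.33% compared with 33.3% and 19.0%, where the groups overlapped. With 1 mouse left out, H2-Aa lost its call without PM mouse 2 (adjusted p = 0.079), H2-Eb1 without PM mouse 1 (0.28), and H2-Ab1 without vehicle mouse 2 (0.208), PM mouse 1 (0.073) or PM mouse 2 (0.429).

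The neutrophil-like cells of the same libraries had raw Cd74 levels of 27.0, 38.5, 165 and 72.3 CPM and H2-Aa levels of 8.62, 15.5, 47.0 and 28.6 CPM, likewise higher with PM. That class also held the monocyte marker Ccr2, at 166, 84.0, 147 and 83.3 CPM, so monocytes among its cells were not excluded. The part of free RNA and of the B cell markers, which were high in PM mouse 1, was not tested. The list median was 0.49 under the stricter gate and 1.64 without vehicle mouse 1. H2-Aa (chr17:34282744-34287823) is shown with the 250 bases before its start, on the minus strand at chr17:34287824-34288073 in RefSeq's GRCm38.p6, since the class II genes share a promoter layout. Capitals mark CCAAT or its reverse ATTGG, in 33.8% of 32851 promoter windows of that length, and TGACGTCA, in 1.55% of them, searched on both strands. A match describes letters and not a bound site.
H2-Aa: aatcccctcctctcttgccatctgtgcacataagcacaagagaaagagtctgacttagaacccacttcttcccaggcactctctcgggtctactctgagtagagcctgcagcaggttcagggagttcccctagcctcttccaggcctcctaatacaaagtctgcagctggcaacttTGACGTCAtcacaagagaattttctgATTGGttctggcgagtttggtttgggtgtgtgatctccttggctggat

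**Figure D3:**
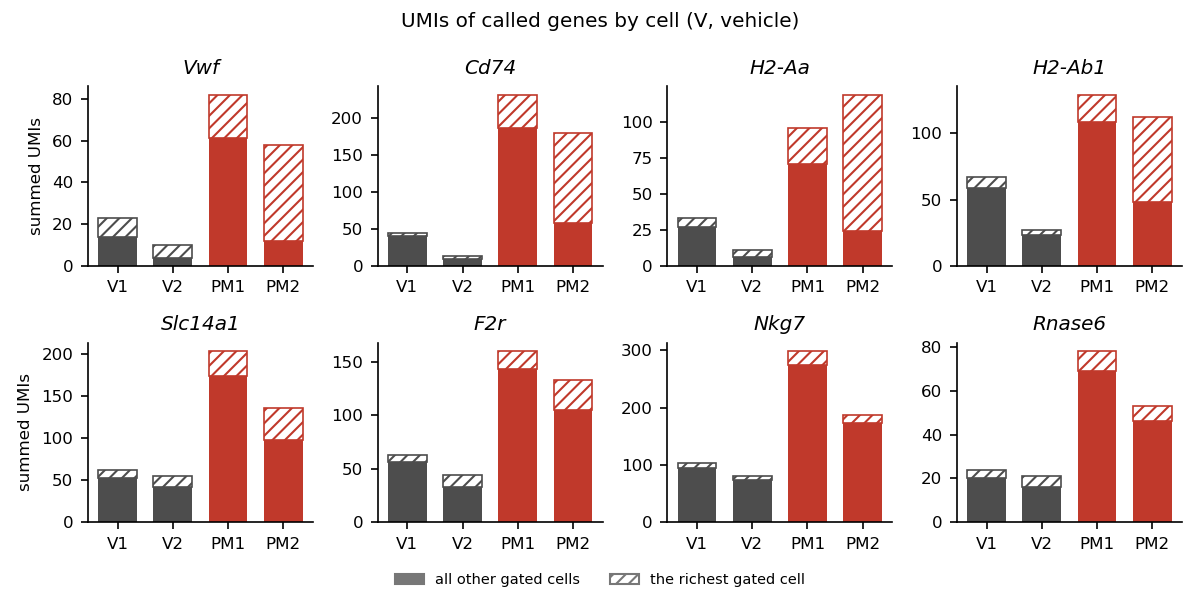
UMIs of 8 called genes in the gated cells of each mouse (V, vehicle), with the share of the cell that held most of them hatched. In PM mouse 2 most Vwf, Cd74, H2-Aa and H2-Ab1 UMIs lie in the cell richest in that gene, found for each gene by itself. Most Slc14a1, F2r, Nkg7 and Rnase6 UMIs of each PM mouse lie outside the richest cell.

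Genes of the type I interferon response, which cells switch on against viruses, had 58 tested members, of which 1 was called higher and none lower. Among them 48 had a positive log2 fold change, and the median was 0.41. In all 4 pairs 26 were higher and 1 was lower, compared with 17.3% and 16.5% of all tested genes. Trim30a was called, with 94.4, 101, 158 and 150 CPM (0.66 ± 0.16, adjusted p = 0.0483), and its call was lost with any of the 4 mice left out (adjusted p from 0.0827 to 0.469). Sp100, a nuclear body protein, had 85.1, 127, 166 and 166 CPM with an adjusted p of 0.0708, and Trim25, a ubiquitin ligase of RNA sensing, 51.4, 51.3, 91.5 and 88.0 CPM with 0.0652. Usp18, which removes ISG15, had 6.54, 3.50, 21.8 and 14.8 CPM (adjusted p = 0.141). The groups did not overlap in these 4 genes, and the values of the uncalled ones did not pass. Sp100, Trim25 and Usp18 were picked after their values were seen, so the lack of overlap in them is no support. Rsad2 had 31.8, 18.7, 28.5 and 22.7 CPM. The list median was 0.19 without PM mouse 1. MHC class I and its peptide loading genes had 19 tested members, none called, with a median of 0.25.

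Of 33 tested stem cell genes 1 was called higher and 1 lower, and the median log2 fold change was 0.15, or 0.016 without PM mouse 1. Pdzk1ip1, a membrane protein of stem cells, had 12.2, 18.7, 36.8 and 40.5 CPM and rose by 1.34 ± 0.33 (adjusted p = 0.0483), and it was found in 16.9% and 20.8% of gated cells in vehicle and in 31.9% and 38.1% in PM, or after thinning in 5.97% and 6.25% compared with 19.4% and 20.6%. Erg (chr16:95359169-95586593), an ETS transcription factor that stem cells need, had 90.7, 87.5, 45.0 and 54.4 CPM and fell by 0.85 ± 0.21 on the log2 scale (adjusted p = 0.0483). Both calls were close to the threshold, and the Erg call was lost with any mouse left out (adjusted p from 0.0794 to 0.607), that of Pdzk1ip1 without vehicle mouse 1 (0.343), PM mouse 1 (0.202) or PM mouse 2 (0.370). Of the most abundant members, Cdk6 had a log2 fold change of -0.09, Sox4 of -0.16, Msi2 of -0.18 and Ifitm1 of -0.36, none called. Procr stood at 7.48, 12.8, 15.0 and 17.8 CPM (0.71 ± 0.46, adjusted p = 0.914) and Prdm16 at 3.74, 5.83, 10.5 and 16.8 CPM (1.49 ± 0.60, adjusted p = 0.599).

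Lymphoid priming genes had 15 tested members, none called, and a median of -0.026. That median was -0.11 without vehicle mouse 1 and 0.054 without vehicle mouse 2. Dntt had 155, 511, 354 and 281 CPM, with the vehicle mice on either side of the PM mice, while Ikzf1 had 291, 285, 256 and 262 and Satb1 238, 258, 224 and 301. Granulocyte and monocyte priming genes had 23 tested members, 1 called higher and 1 lower, and a median of -0.35, which was -0.11 without PM mouse 1 and 0.025 when at most 1 Elane UMI was allowed. Nkg7 (chr7:43437073-43438249), a granule membrane protein of cytotoxic and immature myeloid cells, had 97.2, 94.4, 224 and 186 CPM and rose by 1.10 ± 0.16 (adjusted p = 7.47e-05). It was found in 59.2% and 62.5% of gated cells in vehicle and in 78.7% and 79.4% in PM, and without the richest cells it stood at 1.07 (adjusted p = 0.000179). After thinning it was found in 37.3% and 39.6% compared with 53.8% and 60.3%, and its raw level in neutrophil-like cells was 30.6, 27.6, 79.1 and 45.7 CPM, likewise higher with PM. Prtn3, the azurophil granule proteinase 3, had 767, 584, 438 and 426 CPM and fell by 0.65 ± 0.15 (adjusted p = 0.029), a call lost without vehicle mouse 1 (0.661), PM mouse 1 (0.208) or PM mouse 2 (0.405). Mpo, myeloperoxidase, was at 692, 652, 681 and 701 CPM (log2 fold change 0.04).

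Rnase6 (chr14:51123908-51132187), an antimicrobial ribonuclease of myeloid cells, had 22.4, 24.5, 58.5 and 52.4 CPM and rose by 1.25 ± 0.28 (adjusted p = 0.0196). It was found in 21.1% and 18.8% of gated cells in vehicle and in 42.6% and 42.9% in PM (10.4%, 8.33%, 22.6% and 17.5% after thinning), had 9.92, 9.89, 22.1 and 11.9 raw CPM in neutrophil-like cells, and passed without the richest cells (adjusted p = 0.0366). Its call was lost in thinned cells (log2 fold change 0.94, adjusted p = 0.935) and without vehicle mouse 1 (0.0527), PM mouse 1 (0.233) or PM mouse 2 (0.109). Plbd1, a lysosomal phospholipase-like protein, rose by 1.14 ± 0.28 (adjusted p = 0.0488), Gnb4, a G protein subunit, by 1.13 ± 0.26 (0.0241), and Vamp7, a vesicle fusion protein, by 1.08 ± 0.27 (0.0483). Each of these 3 lost its call without at least 2 of the mice.

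Histones package DNA, and most of their genes are transcribed in S phase. Of 67 genes with replication-type histone symbols 27 were tested, 4 were called lower and none higher, 26 of the 27 had a negative log2 fold change, and the median was -0.81. The libraries capture poly(A) tails, which most of these transcripts lack. Hist1h1c (linker histone H1.2, chr13:23738808-23740367) had 117, 142, 56.3 and 52.4 CPM and fell by 1.24 ± 0.19 on the log2 scale (adjusted p = 8.76e-05), and stood at -1.16 (adjusted p = 0.00173) without the richest cells. Hist1h2bc had 59.8, 85.1, 20.3 and 33.6 CPM (-1.44 ± 0.27, adjusted p = 0.00207). Hist3h2a had 35.5, 35.0, 13.5 and 12.9 CPM (-1.41 ± 0.34, adjusted p = 0.043). Hist1h4d, a histone H4 gene, had 112, 128, 66.8 and 58.3 CPM (-0.93 ± 0.19, adjusted p = 0.0055). In all 4 the PM mice were below the vehicle mice. Without the richest cells the other 3 lost their calls, at -1.33 for Hist1h2bc (adjusted p = 0.0562), -1.37 for Hist3h2a (0.218) and -0.80 for Hist1h4d (0.0983). Hist1h2bc lost its call without PM mouse 1 (adjusted p = 0.208), Hist1h4d without PM mouse 2 (0.227), and Hist3h2a with any mouse left out (0.0827 to 0.313). The list median was -0.42 without vehicle mouse 2 and -0.53 without PM mouse 2. Near-identical histone copies share reads, and their split is uncertain.

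Of 54 tested genes of G2 and mitosis 2 were called lower and none higher. In all 4 pairs 32 of them were lower, compared with 16.5% of all tested genes. The median was -0.32, or -0.15 once marked doublets were removed. Ube2c, the ubiquitin-conjugating enzyme of the anaphase-promoting complex, had 208, 215, 148 and 94.9 CPM (-0.79 ± 0.17, adjusted p = 0.0241), a call lost without PM mouse 2 (0.616), without marked doublets (-0.32, adjusted p = 0.919) and without the richest cells, where the log2 fold change was larger in size (-0.94, adjusted p = 0.961). Mki67, the Ki-67 antigen, had 423, 511, 337 and 276 CPM (-0.60 ± 0.15, adjusted p = 0.0488), a call lost with any mouse left out (0.0532 to 0.765). Of the uncalled members, Nusap1 had 136, 141, 93.8 and 80.1 CPM (log2 fold change -0.67, adjusted p = 0.0636) and Top2a 663, 592, 500 and 421 CPM (-0.44, adjusted p = 0.326). Tuba1c, an alpha tubulin outside the list, had 136, 149, 82.5 and 79.1 CPM and fell by 0.81 ± 0.17 (adjusted p = 0.0106), a call lost without vehicle mouse 2 (0.0627), PM mouse 1 (0.106) or PM mouse 2 (0.227). Without marked doublets Mki67 (-0.43, adjusted p = 0.582) and Tuba1c (-0.59, adjusted p = 0.419) were not called either. In thinned cells Ube2c, Mki67 and Tuba1c stood at -0.74, -0.65 and -0.56 and were not called. None of the 43 genes of S phase was called, and their median was -0.076. That median was 0.017 without vehicle mouse 2 and -0.18 without marked doublets. In thinned cells the G2 and mitosis genes took 7.12‰ and 7.68‰ of UMIs in vehicle and 6.28‰ and 6.30‰ in PM, and the S phase genes 5.01‰ and 5.34‰ compared with 4.88‰ and 4.73‰. These means were lower in all 4 pairs for both lists (exact permutation p = 0.333). The median cell had 4‰, 5‰, 4‰ and 4‰ of G2 and mitosis genes, with an SD between cells of 5.39‰ to 6.75‰, so by the median vehicle mouse 1 and both PM mice had the same value.

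The promoters of the called genes Hist1h1c, Hist1h4d and Ube2c are printed for the letters they hold, each as the 250 bases before the start in RefSeq's GRCm38.p6 on the plus strand, at chr13:23738557-23738806, chr13:23581318-23581567 and chr2:164769679-164769928. Capitals mark CCAAT (reverse ATTGG, in 33.8% of 32851 promoter windows), AAACACA of linker histone promoters (reverse TGTGTTT, 6.25%) in the first, GGTCCG of histone H4 promoters (reverse CGGACC, 6.72%) in the second and TTTGAA of mitotic gene promoters (reverse TTCAAA, 16%) in the third. Each holds its motif once, and CCAAT occurs 1, 1 and 6 times. The matches are descriptions of letters.
Hist1h1c: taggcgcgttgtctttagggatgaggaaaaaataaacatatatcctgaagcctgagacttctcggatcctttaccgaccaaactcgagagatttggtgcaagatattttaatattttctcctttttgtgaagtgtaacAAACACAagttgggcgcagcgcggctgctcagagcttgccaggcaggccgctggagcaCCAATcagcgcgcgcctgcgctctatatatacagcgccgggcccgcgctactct
Hist1h4d: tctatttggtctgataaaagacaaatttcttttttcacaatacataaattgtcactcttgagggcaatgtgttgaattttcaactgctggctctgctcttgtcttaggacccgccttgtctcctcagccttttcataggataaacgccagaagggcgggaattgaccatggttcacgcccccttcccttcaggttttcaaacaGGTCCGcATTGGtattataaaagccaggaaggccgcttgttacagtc
Ube2c: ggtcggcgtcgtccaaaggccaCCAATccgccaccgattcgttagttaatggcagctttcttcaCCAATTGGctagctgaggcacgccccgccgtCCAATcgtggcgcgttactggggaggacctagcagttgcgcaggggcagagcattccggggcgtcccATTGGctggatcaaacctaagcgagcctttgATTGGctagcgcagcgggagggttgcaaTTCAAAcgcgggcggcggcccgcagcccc

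Syne2 (chr12:75818134-76110926), a giant spectrin-repeat protein that ties the nucleus to the cytoskeleton, had 43.9, 60.6, 17.3 and 15.8 CPM and fell by 1.63 ± 0.30 on the log2 scale (adjusted p = 0.00159). It passed without the richest cells (-1.56, adjusted p = 0.0197) and lost its call in thinned cells (-1.21, adjusted p = 0.826) and without PM mouse 2 (0.0997). Ccr2, the receptor that draws monocytes out of the marrow, had 58.9, 94.4, 39.0 and 37.6 CPM (-0.98 ± 0.24, adjusted p = 0.0483), a call lost without vehicle mouse 2 (0.706), PM mouse 1 (0.332) or PM mouse 2 (0.468). Vmp1, an autophagy membrane protein, had 229, 187, 106 and 152 CPM (-0.70 ± 0.17, adjusted p = 0.0483), a call lost without vehicle mouse 1 (0.343), PM mouse 1 (0.802) or PM mouse 2 (0.0527). The calls are completed by Kcnc1, Meg3, Cd55, Plek, Clu, Cdk5rap1, C1galt1 and Vamp5, higher, and Gm26802, lower, which the rule for named genes did not take and which are named after their values were seen. Of these, Kcnc1, Meg3, Cd55, Clu and Cdk5rap1 passed the filter on low counts through the PM mice alone, and Gm26802 through the vehicle mice alone. Plek went from 0.71 to 0.094 without Pf4-rich cells (adjusted p = 0.982). A single cell held 14 of 21 Meg3 UMIs in PM mouse 1 and 9 of 18 Clu UMIs in PM mouse 2. Kcnc1, a potassium channel, had no UMI after vehicle, compared with 26 and 10 UMIs after PM, of which 1 cell held 11 and 4, and its call held in 2 of the 4 fits with 1 mouse left out.

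The targets of the drug were measured in every mouse. Of the 11 HDAC genes 9 were tested and none was called in either direction, with a median log2 fold change of 0.16 that was -0.21 without PM mouse 1. Hdac1 had 133, 117, 130 and 155 CPM, Hdac2 121, 115, 115 and 153, and Hdac3 61.7, 52.5, 54.8 and 49.4, all of class I. Hdac8, the other class I member, had 3, 2, 17 and 9 UMIs and Hdac11, of class IV, 6, 7, 16 and 7, too few for the test. Hdac6 and Hdac10, the class IIb members, had 19.6, 17.5, 15.8 and 11.9 CPM and 9.35, 12.8, 15.0 and 8.90 CPM. Of the class IIa members, Hdac7 was at 93.5, 79.3, 99.8 and 135 CPM (0.43 ± 0.18, adjusted p = 0.668), Hdac4 at 36.5, 45.5, 33.8 and 29.7, Hdac5 at 12.2, 16.3, 15.8 and 20.8, and Hdac9 between 6.54 and 19.8.

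No member was called of the lists of HDAC complexes and acetyl readers (31 tested, median -0.049), PRC2 and chromatin regulators (19, -0.019), cyclin-dependent kinase inhibitors and G1 genes (25, -0.11), p53 targets (19, 0.11), the BCL2 family (11, -0.032), ribosome biogenesis and MYC targets (42, -0.023), the unfolded protein response (24, -0.087), cytokine receptors (24, 0.030) and niche retention and adhesion (19, -0.015). Nor was a member called of the ribosomal proteins (85, 0.038) or of oxidative phosphorylation (91, -0.021). The study follows the products of 6 genes for loss with the drug, as proteins in human myeloma and lymphoma cell lines. Of their mouse transcripts Myc, Ikzf1, Cdk6 and Ezh2 were tested here, none called, with a median of -0.12. Myc had 209, 212, 149 and 225 CPM. Measure, species and cell type differ, so these values are no test of that loss. The list of immediate early and handling stress genes had 29 tested members, none called, and a median of -0.58 that was -0.15 without PM mouse 1 and -1.19 without PM mouse 2. Fos had 872, 677, 245 and 626 CPM and Nr4a1 123, 118, 12.8 and 105, so PM mouse 1 stood apart.

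**Figure D4:**
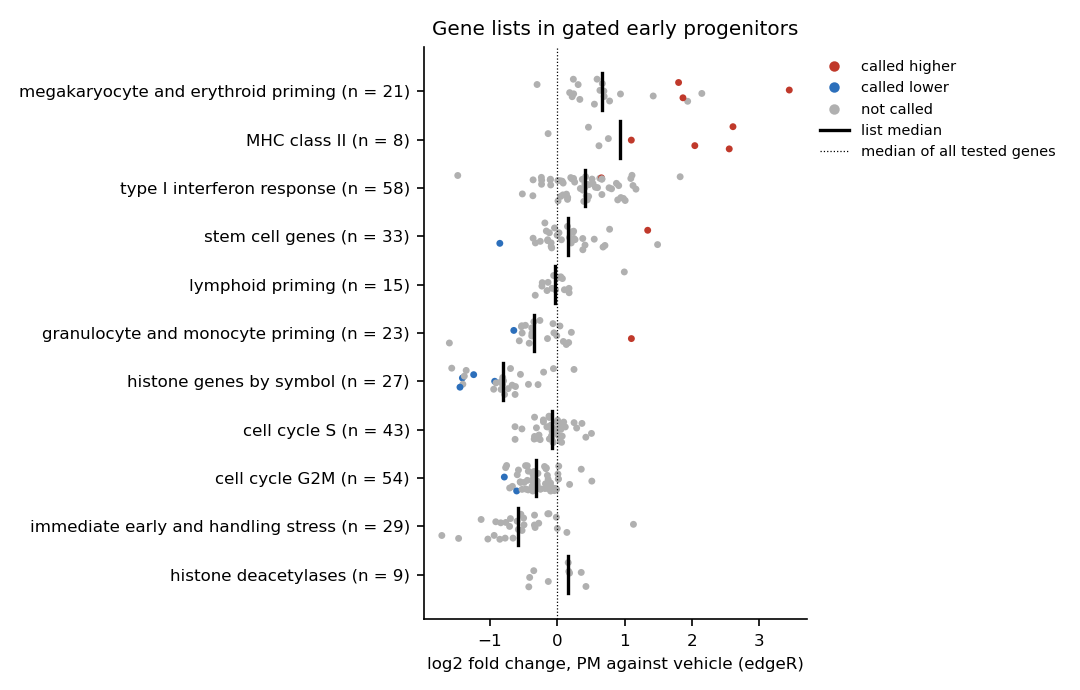
Log2 fold change of PM against vehicle for the tested genes of 11 lists in the gated cells, 1 point per gene, with called genes colored and the list median as a bar. The medians of the megakaryocyte and erythroid, MHC class II and interferon lists lie to the right of the median of all genes. Those of the histone, immediate early and handling stress, granulocyte and monocyte priming, and G2M lists lie to the left.

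Granulocyte-monocyte progenitors, the class next to the gated cells on the myeloid side, were compared by the interaction of class and treatment in edgeR with the mouse as a block, over 11375 genes. The PM effect was called higher in the gated cells for 8 genes (0.0703%) and lower for 32 (0.281%), 0.352% together. By itself the neighbor class had 95 genes called higher with PM (0.866% of 10975) and 8 lower (0.0729%), 0.938% together. The median share of mitochondrial UMIs in this class was 3.11% and 2.84% after vehicle and 4.34% and 4.11% after PM. The part of that difference in these calls was not tested. Nkg7 rose by 1.10 in the gated cells and stood at 0.36 in granulocyte-monocyte progenitors, a difference of 0.73 ± 0.16 (adjusted p = 0.0126), from 86.6, 85.2, 200 and 165 CPM compared with 452, 479, 658 and 536. Of 10 MHC class II genes in this test, 3 had a log2 change that was lower in the gated cells (H2-Aa, H2-Ob and Cd74). Cd74 differed by -2.38 ± 0.40 (adjusted p = 0.000194), at 1.48, 1.95, 52.2 and 49.4 CPM in granulocyte-monocyte progenitors and at higher levels throughout in the gated cells, 37.5, 13.7, 154 and 157 CPM, and H2-Aa by -2.01 ± 0.45 (adjusted p = 0.0153). Ly6a, the Sca-1 antigen, stood at 0.68 in the gated cells and 2.98 in the neighbor class (difference -2.38 ± 0.47, adjusted p = 0.0075), though it was higher to begin with in the former at 55.8 and 17.9 CPM compared with 1.65 and 0.976. Over the lists, the median log2 fold change of histone genes was -0.81 in the gated cells and -0.37 in granulocyte-monocyte progenitors, of which Hist1h1c had an interaction that passed, and that of G2 and mitosis genes was -0.32 and -0.15, of which Ube2c did.

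Early erythroid progenitors were compared in the same way over 10017 genes. There were 6 interactions called higher in the gated cells (0.0599%) and 11 lower (0.110%), 0.170% together. The erythroid class held 25 and 72 cells after vehicle and 133 and 82 after PM, so vehicle mouse 1 gave the fewest (648048 UMIs). By itself this class had 11 genes called higher (0.114% of 9637) and 1 lower (0.0104%), 0.125% together. Slc14a1 rose by 1.24 in the gated cells and stood at 0.15 in the erythroid class (difference 1.04 ± 0.22, adjusted p = 0.0357), where it had 99.5, 117, 124 and 124 CPM compared with 55.2, 61.2, 145 and 128. Mpo differed by -2.56 ± 0.23 (adjusted p = 1.09e-08), at 659, 622, 647 and 669 CPM in the gated cells and at 10.9, 10.5, 68.4 and 62.8 in the erythroid class. Ccr2 differed by -4.11 ± 0.51 (adjusted p = 1.54e-05), lower with PM in the gated cells and at 4.66, 2.11, 21.5 and 21.7 CPM in the erythroid class, and Rsad2, an antiviral enzyme, by -2.70 ± 0.54 (adjusted p = 0.0196). In both neighbor classes the mice gave several genes only a few CPM in vehicle, where the part of free RNA was not tested.

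**Figure D5:**
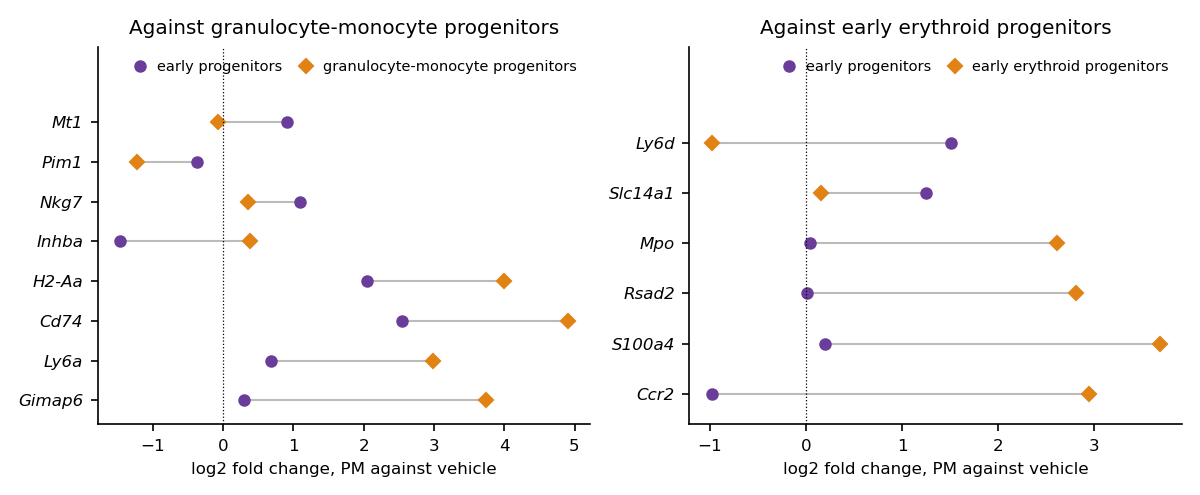
Log2 fold change of PM against vehicle for genes whose effect differed between the gated early progenitors (circles) and a neighbor class (diamonds), by the interaction test. Nkg7 and Slc14a1 had the larger log2 change in the gated cells, whereas Cd74, H2-Aa, Ly6a and Mpo had it in the neighbor classes.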

How the data were processed

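Bone marrow of 5TMM mice given vehicle (n = 2) or 10 mg/kg PM (n = 2) was profiled with the 10x Chromium 3' kit. The authors aligned reads with Cell Ranger (6.0.1 per the file headers) and deposited UMI counts per gene and called cell, not normalized, with 86052982, 69828595, 109447030 and 74388936 UMIs per library. The study's methods name GRCm38 and the submitters' notes GRCm39. Gene positions follow GENCODE vM21 (GRCm38).

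Cells were gated on raw counts with numpy 2.4.6 and scanpy 1.11.5, and their counts were added up for each mouse and tested in R 4.3.3 with edgeR 4.0.16 (quasi-likelihood test with robust dispersion, TMM scaling, low genes dropped by filterByExpr, Benjamini-Hochberg adjustment). DESeq2 1.42.0 was an alternative. Doublets were marked by Scrublet score at the rate the cell number predicts, which took 7.41%, 6.26%, 10.7% and 7.41% of cells, since its own threshold marked 0 and 1 cells in 2 libraries. The fit was tested on counts simulated from its own model with the means and sizes of these 9291 genes. In a single run 100 genes changed by 1 and 100 by 2 on the log2 scale, all averaging 20 CPM or more. It recovered 59% of the former and 96% of the latter, and 12 unchanged genes were called. In another run, where none changed, 3 were called. Changes in lower genes and UMIs gathered in single cells were not simulated, so these rates do not cover such genes.

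Members and lists were chosen with earlier results of these data known. Named genes were the 12 largest rises and the 12 largest falls among calls averaging 20 CPM or more that went the same way in all 4 pairs (antigen receptor, hemoglobin and mitochondrial genes left out), up to 4 called members per list and direction, all HDACs and the 4 most abundant members of the priming, stem cell and marker lists. Of the other genes named, Sp100, Trim25, Usp18, Cd9, Nusap1, Top2a, Procr, Prdm16, Myc, Fos and Nr4a1 lie outside this rule and were named after their values were seen. For interactions they were the 5 largest differences each way among genes averaging 20 CPM or more.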

Additional observations from a re-analysis of the deposited data

Results flagged for a closer look

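The results below were taken up because the PM effect differed between the gated early progenitors and a neighbor class by edgeR's interaction test (log2 scale, gated cells minus neighbor class, Benjamini-Hochberg adjusted p). Against granulocyte-monocyte progenitors, the effect was higher in the gated cells for Mt1, a metallothionein (difference 0.96, adjusted p = 0.0259), Pim1, a kinase of cytokine signaling (0.73, adjusted p = 0.0153) and Nkg7 (0.73, adjusted p = 0.0126). Pim1 had 669, 365, 296 and 501 CPM in the gated cells, where the groups overlapped, and 380, 136, 86.6 and 136 in granulocyte-monocyte progenitors, with vehicle mouse 1 apart. Its log2 fold changes were -0.37 and -1.23, neither called, so the higher value was a less negative one. The effect was lower in the gated cells for Gimap6 (-3.32, adjusted p = 0.00423), Ly6a (-2.38, adjusted p = 0.0075), Cd74 (-2.38, adjusted p = 0.000194), H2-Aa (-2.01, adjusted p = 0.0153) and Inhba (-1.84, adjusted p = 0.0153). Gimap6, a GTPase of lymphoid cells, had 37.5, 82.1, 66.9 and 75.7 CPM in the gated cells and 0.494, 0, 4.19 and 4.16 in granulocyte-monocyte progenitors. Inhba, an activin subunit, had 21.6, 23.1, 7.35 and 8.80 CPM in the gated cells.

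Against early erythroid progenitors, the effect was higher in the gated cells for Mt2 (6.17, adjusted p = 0.0487), Ly6d (2.60, adjusted p = 0.0307) and Slc14a1 (1.04, adjusted p = 0.0357). Mt2 had 0, 0, 5.70 and 3.78 CPM in the gated cells, so the fitted difference depends on the prior count and is no measured fold. Ly6d, a marker of lymphoid progenitors, had 27.6, 22.3, 132 and 2.83 CPM there, with PM mouse 1 apart. The effect was lower for Ccr2 (-4.11, adjusted p = 1.54e-05), S100a4 (-3.91, adjusted p = 0.000396), Ccl4 (-3.37, adjusted p = 0.00553), Rsad2 (-2.70, adjusted p = 0.0196) and Mpo (-2.56, adjusted p = 1.09e-08). S100a4 had 28.5, 108, 77.0 and 73.6 CPM in the gated cells and 1.55, 1.26, 15.5 and 20.8 in the erythroid class. The chemokine Ccl4 had 52.6, 189, 32.1 and 99.1 CPM compared with 0, 2.11, 2.29 and 13.2. Ccl4 had no value in the fit of the erythroid class by itself, so it entered this test through its level in the gated cells. Its fitted difference (-3.37, adjusted p = 0.00553) is no measured fold, and no difference is read from it.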

How the results depend on the processing

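Of the 39 called genes none changed direction under any alternative in which it was tested, and in 276 of 554 such fits it lost its call. Where the groups did not overlap, leaving out 1 mouse could hardly reverse the direction, so the kept direction is no support there. By edgeR 26 genes were called higher and 13 lower. The counts were 59 and 32 with no filter on low counts, 15 and 3 with at most 1 Elane UMI, 12 and 5 without marked doublets, 5 and 3 in cells thinned to 5000 UMIs, and 1 (Cd74) and 0 with DESeq2 (76 and 45 at an unadjusted p under 0.05). They were 0 and 0 under the stricter gate (195 and 177 at an unadjusted p under 0.05). Stricter limits on cells (500 genes or more, no more than 10% mitochondrial UMIs) gave 20 and 8. Without the cell of each mouse richest in the gene, an alternative chosen after seeing the data, 6 and 4 were called, and without Pf4-rich cells, likewise chosen, 21 and 11. Leaving out 1 mouse gave 14 to 61 higher (14 without PM mouse 1, 61 without vehicle mouse 1) and 16 to 51 lower (16 without PM mouse 2, 51 without vehicle mouse 1, 30 without vehicle mouse 2, 24 without PM mouse 1). An arm left with 1 mouse was assumed to vary like the other.

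The mice share only a number across groups, and same-numbered mice did not deviate together (r = -0.00804 over 3881 genes, across genes). With the number as a replicate block 50 genes were called higher and 33 lower.

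Interactions with granulocyte-monocyte progenitors numbered 8 higher and 32 lower, and 1 to 16 and 10 to 48 with 1 mouse left out (1 and 10 without vehicle mouse 2, 2 and 14 without vehicle mouse 1, 16 higher without PM mouse 2). With early erythroid progenitors they numbered 6 and 11, then 11 higher with DESeq2 size factors, 25 and 33 with no filter, and 4 to 26 and 1 to 119 with 1 mouse left out (26 and 119 without vehicle mouse 1, 1 lower without vehicle mouse 2). The difference in the share of gated cells, 0.000931 percentage points, was 0.209 when cells were thinned before gating and those under 5000 UMIs left the total, 0.241 over these deep cells without thinning (chosen after seeing the data), and -0.0757 to 0.0776 with 1 mouse left out. With 48 to 94 gated cells per mouse, genes of low level could not be tested.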
